A study of Mus musculus with 12 samples.

Results

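Integrins are paired receptors, each an α and a β chain, that hold cells to the matrix around them or to other cells, and laminins are three-chain proteins that form the basement membrane. The genes of both families were taken from the expression table by name, as every row whose symbol is that of an integrin α chain, an integrin β chain or a laminin α, β or γ chain. This gave 37 of the 44345 rows: 18 integrin α chains, 8 integrin β chains and 11 laminin chains. All but Itgad, the αD chain of leukocytes, passed the filter on low values, so 36 were tested.

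RNA was measured in sciatic dorsal root ganglia (DRG), where sensory neurons have their somata. The mice were C57BL/6 and 6 to 8 weeks old. No transgene or mutation is stated. By daily gavage for 10 days they were given either 20 mg/kg of indole-3-propionic acid (IPA), a bacterial indole of the gut, in phosphate-buffered saline (PBS), or PBS alone as vehicle. The 4 groups are named PBS (intact vehicle), IPA (intact IPA), PBS.SNC (vehicle with a sciatic nerve crush) and IPA.SNC (IPA with a crush), and each has 3 libraries. Each library pooled the ganglia of 2 mice. Crushed groups were taken 3 days after the crush. IPA was given during those 3 days, and the labels leave unclear whether vehicle was too, so the crushed IPA mice differ from the intact IPA mice in length of dosing as well as in injury. The labels state neither sex nor batch.

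In peripheral nerve and ganglia, laminin is laid down by Schwann cells, satellite glia, endothelial cells and perineurium, and growing axons use laminin-binding integrins to advance on it. The α3, α6 and α7 chains, which pair with β1 (and α6 also with β4), bind laminin, α1, α2, α10 and α11 bind collagen, and α5, α8, αv and αIIb bind ligands with the RGD motif such as fibronectin and vitronectin. The αL, αM, αX, αD and αE chains with β2 or β7 belong to leukocytes.

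Sequencing depth ran from 40938034 to 62501969 recovered reads, so that a single read added 0.0130 to 0.0199 to a gene's deposited value. Sensory neuron markers summed to 20680 to 21820 of the deposited unit in intact and 18200 to 20080 in crushed libraries. None of these markers was at 0 in all libraries. After the crush 2 of the 13 were called higher (15.4%) and 9 lower (69.2%) under either treatment. Of all genes 23.6% were called higher and 24.4% lower under vehicle, and 21.2% and 22.5% under IPA. The 12 nerve injury genes on the list used here were all higher after the crush under either treatment. Crushed vehicle replicate 1, crushed IPA replicate 3 and intact vehicle replicate 3 stood apart from the others of their groups. Read counts of crushed vehicle replicate 1 differed from its group mates by a chi-square of 26.3 and 24.1 per degree of freedom. Those mates differed from each other by 5.38. For crushed IPA replicate 3 the values were 22.4 and 11.2, and 6.74 between its mates. For intact vehicle replicate 3 they were 10 and 16.2, and 4.55 between its mates. Crushed IPA replicate 3 had the highest summed neutrophil markers (187.4, against 22.1 to 105.1 elsewhere).

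The comparison of crushed with intact vehicle mice asked what nerve injury changed. Of the 36 tested genes 11 rose (30.6%, against 23.6% of all 15603 genes tested) and 6 fell (16.7%, against 24.4%), by limma at a Benjamini-Hochberg adjusted p under 0.05. Their median log2 change was 0.13, and that of all genes was -0.0045. Under IPA 10 rose (27.8%, against 21.2% of all genes) and 6 fell (16.7%, against 22.5%), with a median of 0.07 against -0.016. In both comparisons the genes that rose were the laminin receptor chain Itga7, the shared partner Itgb1, the laminin chains Lamb3, Lama3 and Lama5 and the leukocyte chains Itgam, Itgax and Itgb2, while Itga6, Itga4, Itga9, Itga11, Itgb3 and Itgb6 fell. Of these, Lamb3 and Itgax passed the filter on low values only through their crushed libraries. Another 3 were called higher under vehicle alone (Itga5, Itgb5, Itgav) and 2 under IPA alone (Itga2b, Itga3), and 17 were called in neither. Without crushed vehicle replicate 1, 15 rose and 4 fell under vehicle, and without crushed IPA replicate 3, 9 rose and 7 fell under IPA. In these fits calls over all genes went from 3683 higher and 3801 lower to 4080 and 4240 under vehicle. Under IPA they went from 3303 and 3505 to 3081 and 3445. The shares of all genes given here stand beside every later count of genes called in the injury comparisons, unless an alternative setting is named. In whole ganglia, a change in the number of cells of a type and a change in RNA per cell cannot be told apart.

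**Figure D1:**
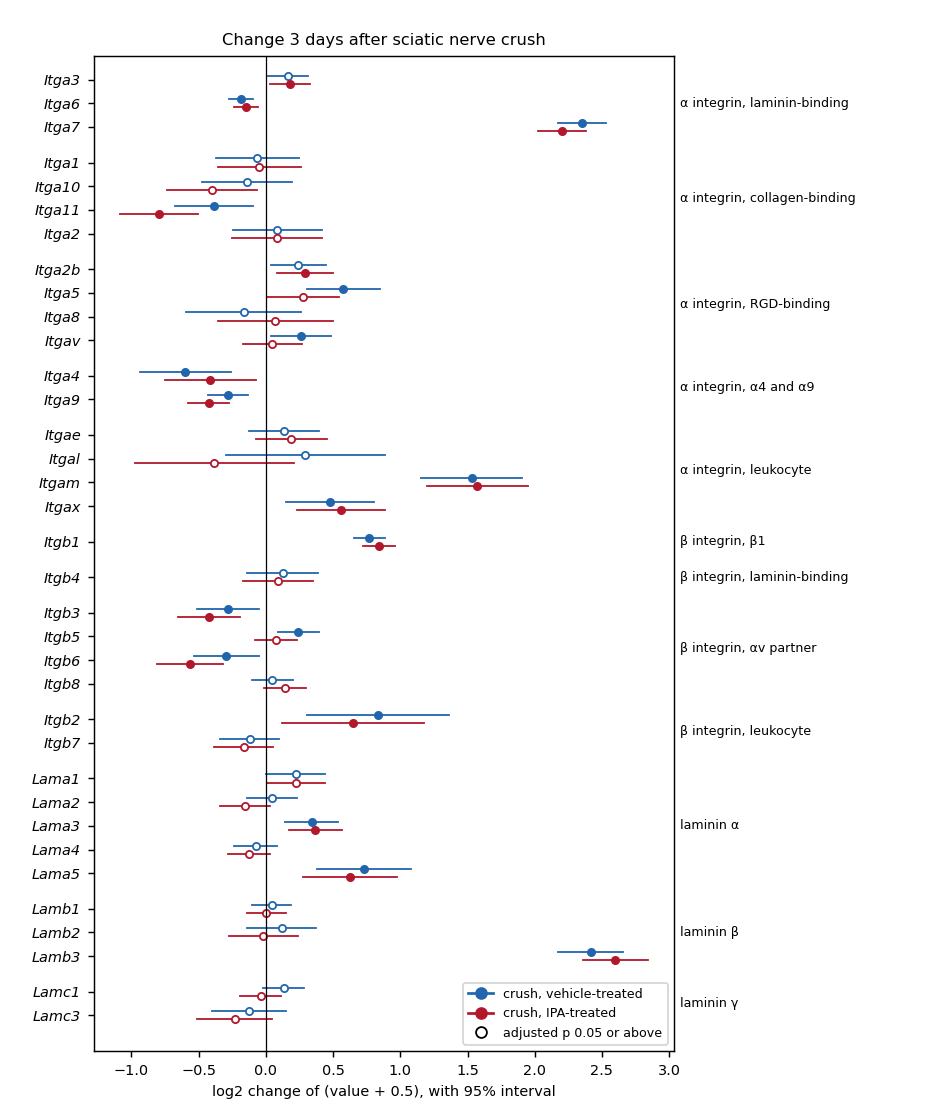
Log2 change after nerve crush (horizontal axis, on the log2(value + 0.5) scale, with 95% interval) for the tested genes reported by name, grouped by role, in vehicle-treated (blue) and IPA-treated (red) mice; filled points passed at an adjusted p under 0.05. Itga7 and Lamb3 lie furthest to the right, at 2.35 and 2.42 under vehicle, and most other genes lie within 1 log2 unit of 0.

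Levels can be set against each other only per length of transcript. On that scale Itga7 led the integrin α chains, at 115 of the deposited unit per kilobase of longest transcript over all libraries, followed by Itga3 (19.0), Itga6 (14.8) and Itgav (4.26). The 3 laminin-binding chains thus stood above the other 15 α chains. Among β chains Itgb1 stood at 94.7 per kilobase, with Itgb5 at 10.1, Itgb8 at 9.41 and Itgb4 at 7.39. Among laminins the order was Lamb1 (13.6), Lamc1 (7.57), Lamb2 (7.45) and Lama4 (5.14). Lama2 followed at 2.43 per kilobase, and Lama1, Lama3 and Lamb3 were the lowest, at 0.341 to 0.366. The levels of Itga3 and Itga6 overlapped between libraries, as did those of Itgb5 and Itgb8, of Itgb8 and Itgb4, and of Lamc1 and Lamb2, so the order within those neighbours is not settled. With all exons of a gene as its length the levels per kilobase were lower (57.3 for Itga7, 88.5 for Itgb1), and the first 4 of each family kept their order. Itgad stood on 1 to 8 reads per library, and no comparison of its levels was made.

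**Figure D2:**
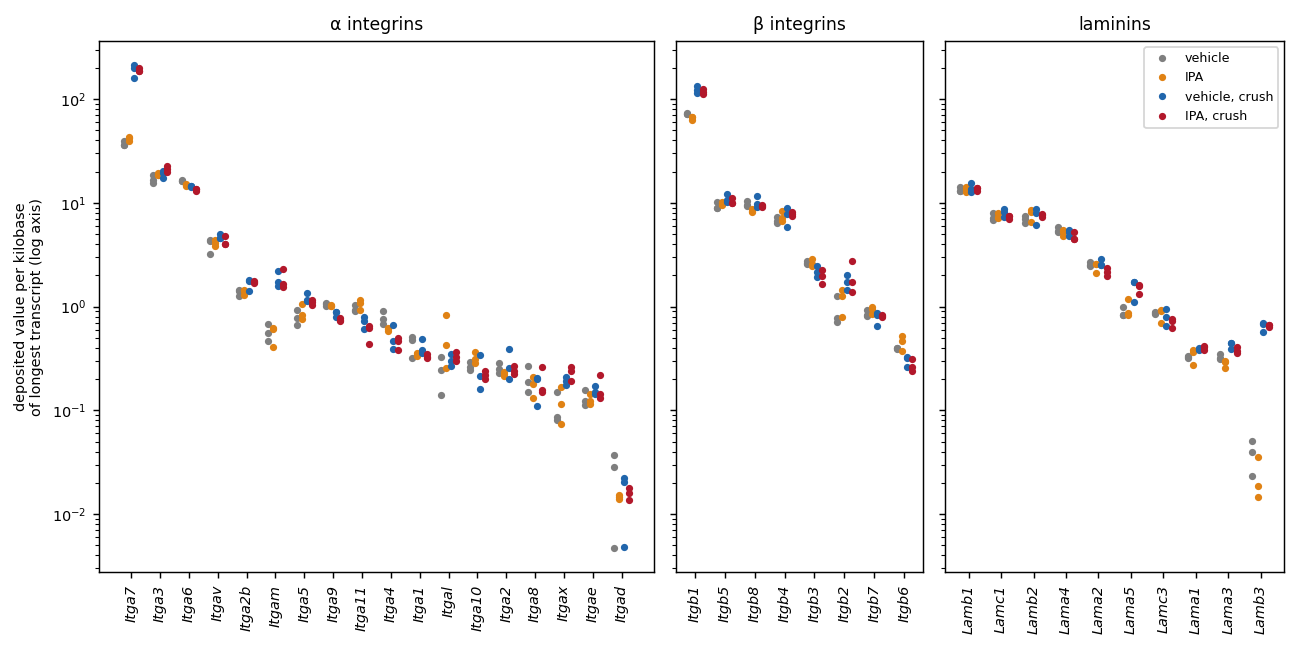
Deposited value per kilobase of longest transcript (vertical log axis) for the genes reported by name, with 1 point per library coloured by group and genes ordered within each family by their mean. Itga7 and Itgb1 stand above their families, and Lamb3 is the lowest laminin in intact ganglia.

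Among the laminin-binding α chains, Itga7 rose, Itga6 fell slightly, and Itga3 was near the threshold. Itga7 (ENSMUSG00000025348, chromosome 10, 128933818 to 128958282, plus strand) is the α chain of the laminin receptor α7β1, best known from skeletal muscle and also made by neurons that regrow axons. Its values were 144, 146 and 159 in intact vehicle libraries, 169, 173 and 159.7 in intact IPA, 643, 802 and 859 in crushed vehicle, and 798, 758 and 756 in crushed IPA libraries. Every crushed library stood above every intact one, by a wide gap, and the lowest crushed value was in crushed vehicle replicate 1. The log2 change was 2.35 ± 0.08 (SE) under vehicle (adjusted p = 5.18e-11) and 2.20 ± 0.08 under IPA (adjusted p = 1.11e-10), 5.10-fold and 4.60-fold. Without crushed vehicle replicate 1 the vehicle change was 2.47, and it was 2.22 under IPA without crushed IPA replicate 3. Summed skeletal muscle markers were 116.0 to 202.7 in intact and 103.6 to 383.8 in crushed libraries, and the list's median log2 change was 1.03 under vehicle and 1.00 under IPA. Of its 11 tested markers Myh2 rose and Pvalb, which DRG neurons also make, fell under vehicle, and Pvalb alone was called under IPA. Pvalb was a large part of the sums, with means of 73.5 in intact vehicle and 75.1 in intact IPA libraries. In crushed vehicle and crushed IPA libraries its means were 61.9 and 55.1, so the sums may not be of muscle RNA alone. By replicate, the muscle sums were 383.8, 157.8 and 371.0 in crushed vehicle libraries, where Itga7 was 643, 802 and 859. In crushed IPA libraries they were 368.0, 177.3 and 103.6, where Itga7 was 798, 758 and 756. The part of muscle RNA in the Itga7 change was not tested.

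Itga6, whose product pairs with β1 or β4, was 70.6, 70.3 and 71.2 in intact vehicle, 64.0, 65.2 and 62.4 in intact IPA, 63.3, 61.1 and 62.2 in crushed vehicle, and 55.6, 58.3 and 58.9 in crushed IPA libraries. Crushed libraries lay below intact ones within each treatment. The change was -0.18 ± 0.04 under vehicle (adjusted p = 0.00234) and -0.15 ± 0.04 under IPA (adjusted p = 0.0104). The IPA call was lost without intact IPA replicate 2 (adjusted p = 0.0506) or crushed IPA replicate 1 (adjusted p = 0.0504). Itga3, which pairs with β1 and binds laminins that hold α3 or α5 chains, was 80.6, 76.2 and 89.5 in intact vehicle, 89.5, 93.5 and 90.3 in intact IPA, 83.8, 94.8 and 97.8 in crushed vehicle, and 109.9, 103.5 and 97.0 in crushed IPA libraries. The vehicle groups overlapped and the IPA groups did not. Its change was 0.17 ± 0.07 under vehicle (adjusted p = 0.0643) and 0.18 ± 0.07 under IPA (adjusted p = 0.0485), and the latter call was lost without any library of either IPA group other than crushed IPA replicate 3, and without intact vehicle replicate 1 or crushed vehicle replicate 2.

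The shares of the α chains shifted with the rise of Itga7. Per kilobase, Itga7 made up 45.5% ± 0.30 (SD over 3 libraries) of the summed α chains in intact vehicle, 48.0% ± 0.53 in intact IPA, 80.2% ± 2.02 in crushed vehicle and 80.3% ± 0.46 in crushed IPA ganglia. The sum of all α chains rose with it, from 81.6 ± 3.86 to 237.7 ± 29.0 per kilobase under vehicle and from 86.6 ± 2.65 to 238.8 ± 6.02 under IPA. Over the same groups the share of Itga3 was 20.7% in intact vehicle and 8.00% in crushed vehicle ganglia, and that of Itga6 was 20.1% and 6.14%. These shares are set by Itga7, since the per-kilobase level of Itga3 was 16.9 and 19.0 and that of Itga6 was 16.4 and 14.4.

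**Figure D3:**
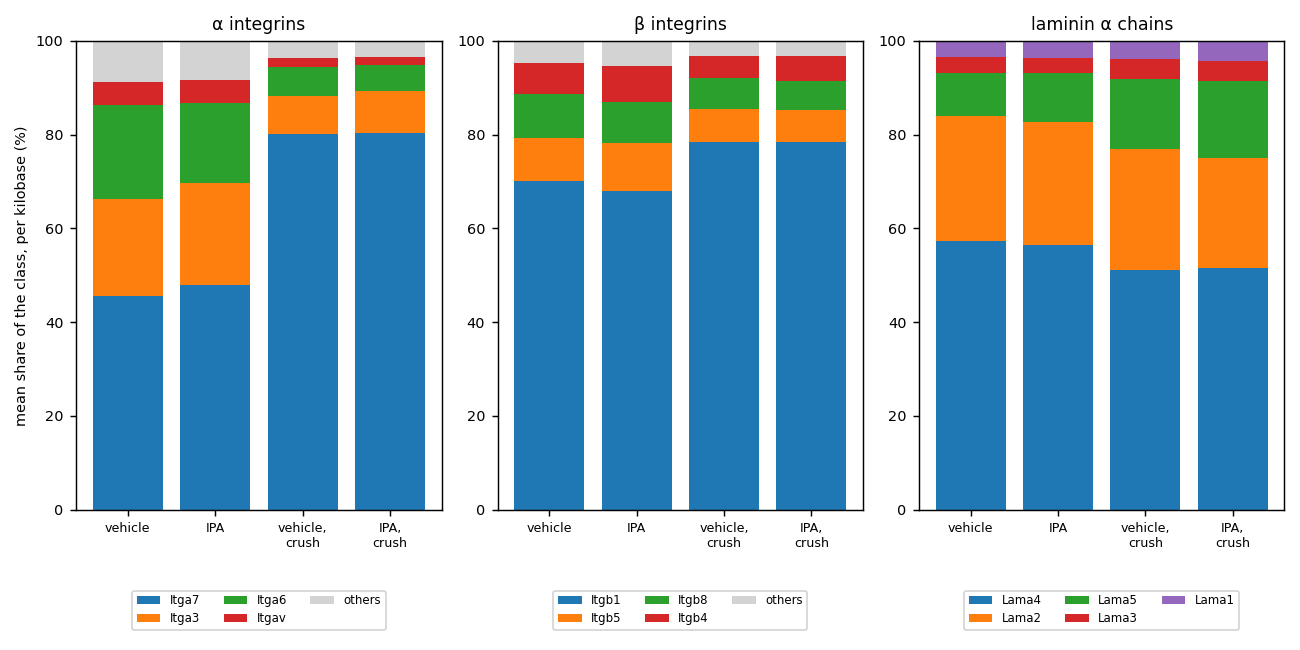
Mean share (%) of each gene in the summed level per kilobase of its family, for the 4 groups (n = 3 libraries each), with bars from 0 to 100%. The Itga7 share of the α chains was 45.5% in intact and 80.2% in crushed vehicle ganglia, and the Lama5 share of the laminin α chains was 9.24% and 14.9%.

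Itgb1 (ENSMUSG00000025809, chromosome 8, 128685654 to 128733200, plus strand) encodes β1, the partner of every laminin- and collagen-binding α chain measured here. It was 273, 279 and 272 in intact vehicle, 256, 242 and 254 in intact IPA, 505, 436 and 468 in crushed vehicle, and 429, 449 and 473 in crushed IPA libraries. Crushed and intact libraries did not overlap. The log2 change was 0.77 ± 0.05 under vehicle (adjusted p = 6.58e-08) and 0.84 ± 0.05 under IPA (adjusted p = 3.05e-08). Itgb1 made up 70.1% ± 1.11 of the summed β chains per kilobase in intact vehicle and 78.4% ± 2.32 in crushed vehicle ganglia. Itgb4, whose β4 chain pairs with α6 and is made by Schwann cells and perineurium, was 41.9, 39.7 and 44.9 in intact vehicle and 36.3, 55.8 and 48.0 in crushed vehicle libraries. Its groups overlapped, with a change of 0.13 ± 0.12 under vehicle and 0.09 ± 0.12 under IPA, neither called. Intact and crushed IPA libraries held 44.7, 51.9 and 41.2 and 49.0, 50.9 and 46.3.

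**Figure D4:**
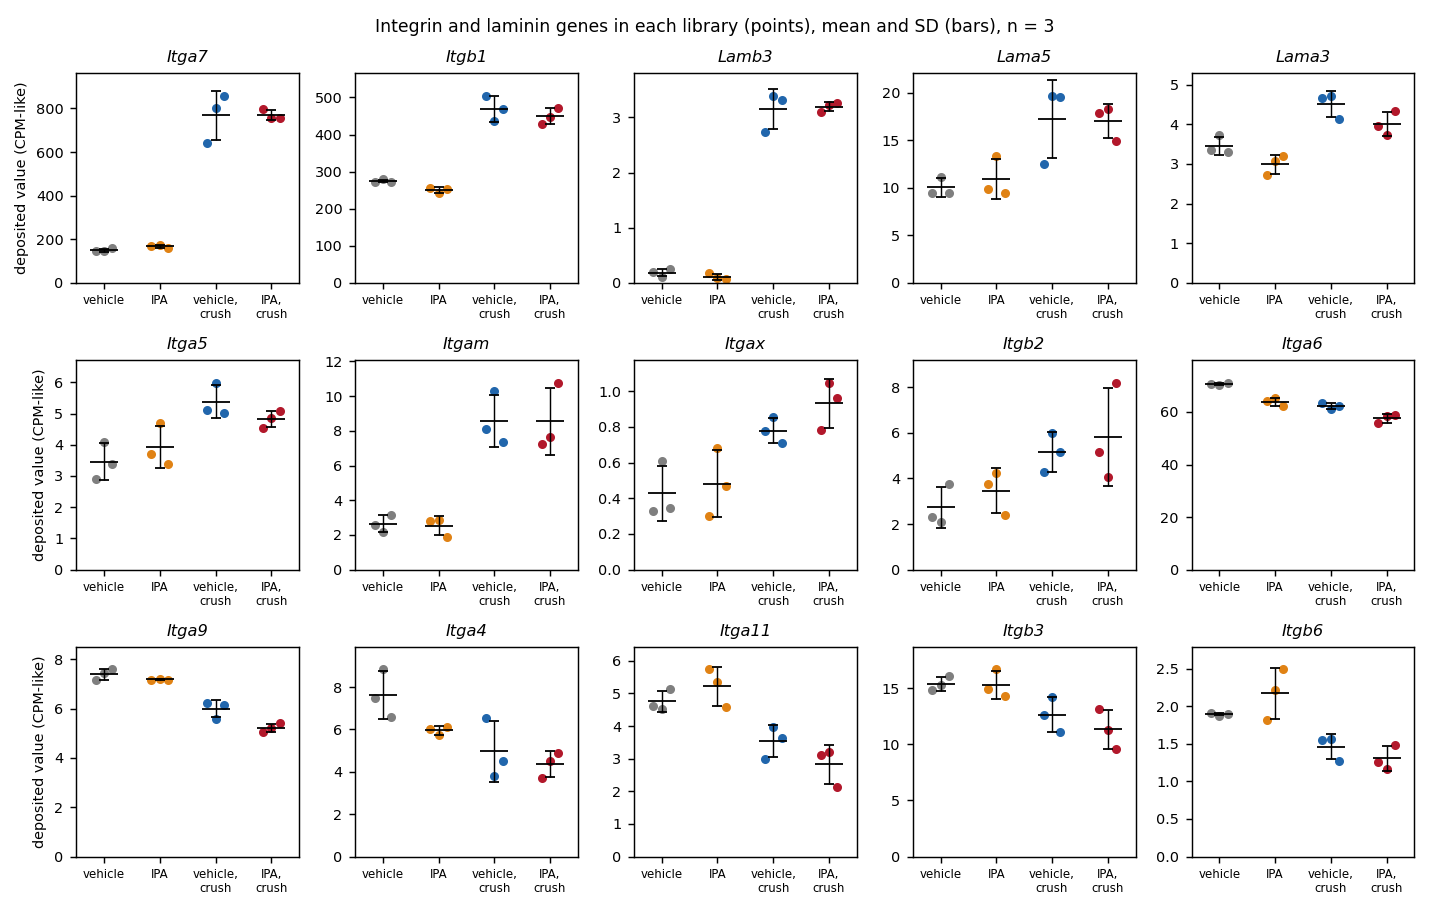
Deposited value (vertical axis, CPM-like, from 0) in each library (points) with mean and SD (bars, n = 3) of 15 integrin and laminin genes in intact vehicle, intact IPA, crushed vehicle and crushed IPA ganglia. Itga7, Itgb1 and Lamb3 are clear of overlap between intact and crushed libraries, while crushed IPA replicate 3 is the highest Itgb2 value (8.20) and the lowest Itga11 value (2.15).

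Of the 11 laminin chains Lamb3, Lama5 and Lama3 rose and none fell in either comparison. These 3 are 27.3%, close to the 23.6% of all genes called higher under vehicle and the 21.2% under IPA. Lamb3 (ENSMUSG00000026639, chromosome 1, 193207699 to 193343878, plus strand) encodes the β3 chain of a laminin of epithelial basement membranes. It was 0.193, 0.114 and 0.248 in intact vehicle, 0.173, 0.0906 and 0.0712 in intact IPA, 2.75, 3.40 and 3.32 in crushed vehicle, and 3.10, 3.23 and 3.25 in crushed IPA libraries. The intact values rest on 5 to 15 reads and the crushed ones on 138 to 238. All intact values were below the filter value of 0.5, so Lamb3 was tested only because of its crushed libraries, where it is high. Its call and its place in the counts are to be read with that limit. The change was 2.42 ± 0.11 under vehicle (adjusted p = 8.03e-10) and 2.60 ± 0.11 under IPA (adjusted p = 4.23e-10) on the log2(value + 0.5) scale, which understates changes of low genes. On the recovered reads edgeR gave 4.07 and 4.85. Even after the rise Lamb3 stood at 0.648 per kilobase in crushed vehicle ganglia, against 13.9 for Lamb1.

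Lama5, the α5 chain of adult endothelial and nerve basement membranes, was 9.48, 11.2 and 9.45 in intact vehicle, 9.88, 13.4 and 9.50 in intact IPA, 12.5, 19.7 and 19.6 in crushed vehicle, and 17.8, 18.3 and 14.9 in crushed IPA libraries. Crushed libraries were higher within each treatment, least so crushed vehicle replicate 1. The change was 0.73 ± 0.16 under vehicle (adjusted p = 0.00211) and 0.63 ± 0.16 under IPA (adjusted p = 0.00628), and 0.94 under vehicle without crushed vehicle replicate 1. Lama3, the α3 chain, was 3.35, 3.72 and 3.29 in intact vehicle, 2.73, 3.07 and 3.19 in intact IPA, 4.67, 4.72 and 4.13 in crushed vehicle, and 3.96, 3.73 and 4.33 in crushed IPA libraries. Its groups did not overlap within a treatment, and it changed by 0.34 ± 0.09 (adjusted p = 0.0072) and 0.37 ± 0.09 (adjusted p = 0.00496). Endothelial markers summed to 143.2 to 165.7 in intact and 159.7 to 184.4 in crushed libraries, with 3 of 12 higher under vehicle and 2 under IPA. Fibroblast, meningeal and perineurial markers had 5 of 12 higher under vehicle, and 3 higher and 1 lower under IPA. The part of these cell types in the laminin changes was not tested.

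The 4 laminin chains with the highest levels per kilobase were called in neither comparison. Lamb1, the β1 chain, was 76.0, 75.1 and 81.5 in intact vehicle, 79.0, 81.5 and 73.9 in intact IPA, 73.1, 89.0 and 78.5 in crushed vehicle, and 74.4, 79.6 and 80.7 in crushed IPA libraries. Its groups overlapped, with a change of 0.04 under vehicle (95% interval -0.10 to 0.19) and 0.0030 under IPA (-0.14 to 0.15). Lamc1, the γ1 chain of most laminins, was 52.4, 55.0 and 60.6 in intact vehicle, 55.0, 61.0 and 56.1 in intact IPA, 56.1, 66.4 and 62.0 in crushed vehicle, and 53.0, 57.4 and 57.1 in crushed IPA libraries. It too overlapped between groups, at 0.13 (-0.02 to 0.29) and -0.04 (-0.19 to 0.11). Lamb2, the β2 chain of synapses and perineurium, was 35.7, 38.9 and 42.2 in intact vehicle, 45.9, 47.8 and 36.8 in intact IPA, 34.1, 48.6 and 45.4 in crushed vehicle, and 41.1, 43.6 and 43.3 in crushed IPA libraries. Crushed vehicle replicate 1 was the lowest of all 12 libraries for Lamb2, and the changes were 0.12 (-0.14 to 0.37) and -0.02 (-0.27 to 0.24). Lama4, the α4 chain of Schwann cell and vessel laminin, was 35.0, 32.3 and 31.8 in intact vehicle, 32.9, 31.8 and 29.2 in intact IPA, 31.8, 33.0 and 29.3 in crushed vehicle, and 27.3, 27.0 and 31.8 in crushed IPA libraries. Its changes were -0.08 (-0.23 to 0.08) and -0.13 (-0.29 to 0.03), and it made up 57.3% ± 2.03 of the summed laminin α chains per kilobase in intact vehicle and 51.2% ± 2.71 in crushed vehicle ganglia. Of the other uncalled laminins, Lama1, Lama2 and Lamc3 changed by -0.12 to 0.22 under vehicle and -0.23 to 0.22 under IPA.

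Of the 6 leukocyte chains tested, Itgam, Itgax and Itgb2 rose under both treatments. Over all genes 23.6% rose under vehicle and 21.2% under IPA. Itgae, Itgal and Itgb7 were called in neither, with changes of -0.12 to 0.29 under vehicle and -0.38 to 0.19 under IPA. Itgam (ENSMUSG00000030786), the αM chain or CD11b, and Itgax (ENSMUSG00000030789), the αX chain or CD11c, pair with β2 into complement receptors of macrophages and neutrophils. Itgam lies at 128062640 to 128118491 and Itgax at 128129547 to 128150657 on the plus strand of chromosome 7, 11.1 kb apart, with Itgad 3.7 kb beyond Itgax. Since Itgam and Itgax are neighbours that rose together, their promoters are shown, 250 bases before to 50 after the start on the plus strand, from RefSeq on GRCm38.p6, at chr7:128062390-128062689 and chr7:128129300-128129599. Capitals mark the AP-1 motif TGANTCA.
Itgam: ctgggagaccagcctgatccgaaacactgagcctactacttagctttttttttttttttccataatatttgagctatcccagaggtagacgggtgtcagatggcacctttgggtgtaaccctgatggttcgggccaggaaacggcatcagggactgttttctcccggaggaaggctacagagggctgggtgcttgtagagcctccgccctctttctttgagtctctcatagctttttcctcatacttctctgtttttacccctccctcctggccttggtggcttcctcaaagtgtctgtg
Itgax: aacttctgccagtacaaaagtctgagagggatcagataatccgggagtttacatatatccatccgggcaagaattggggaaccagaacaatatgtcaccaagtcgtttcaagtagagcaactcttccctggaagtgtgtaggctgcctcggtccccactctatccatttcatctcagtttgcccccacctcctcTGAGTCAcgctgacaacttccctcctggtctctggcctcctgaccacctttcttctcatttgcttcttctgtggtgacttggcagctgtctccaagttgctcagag
The Itgax window holds the motif at position -56 from the start, and the Itgam window holds none. Over the 26 windows of the 23 genes with a promoter in the table, 3 held TGANTCA (Itga3, Itga9 and Itgax), none held the cyclic AMP response motif TGACGTCA, and 4 held GAGGAAGT, a form of the PU.1 motif of myeloid cells (Itga11, Itgav, Itgb6 and Itgb7), searched on both strands (no motif contains another). Over all 32851 promoters of the mouse, 7.81%, 1.79% and 3.20% held them. The Itga3 and Itga9 windows with TGANTCA lie 7603 and 105002 bases from the annotated gene start, and the Itgb6 window with GAGGAAGT lies 48950 bases from it, so these are other starts of the genes. No window was used for the other 14 genes, Itga7 and Itgb2 among them. A match describes letters in this window only.

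Itgam was 2.58, 2.18 and 3.16 in intact vehicle, 2.82, 2.88 and 1.91 in intact IPA, 8.10, 10.3 and 7.37 in crushed vehicle, and 7.25, 7.65 and 10.8 in crushed IPA libraries. Every crushed library was above every intact one. The change was 1.53 ± 0.18 under vehicle (adjusted p = 7.65e-06) and 1.57 ± 0.18 under IPA (adjusted p = 6.80e-06), and 1.41 under IPA without crushed IPA replicate 3. The annotated gene Gm49368 shares 68.7% of the exonic bases of Itgam on the same strand, so reads from it cannot be told apart here. Itgax was 0.328, 0.607 and 0.348 in intact vehicle, 0.299, 0.679 and 0.470 in intact IPA, 0.776, 0.853 and 0.712 in crushed vehicle, and 0.782, 1.05 and 0.964 in crushed IPA libraries. Most intact values of Itgax were below the filter value of 0.5, so it too passed only with its crushed libraries. Its groups did not overlap within a treatment. It changed by 0.48 ± 0.15 (adjusted p = 0.0188) and 0.56 ± 0.15 (adjusted p = 0.00877), and the vehicle call was lost without intact vehicle replicate 1 or 3 or crushed vehicle replicate 2 (adjusted p = 0.0613 to 0.0773).

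Itgb2, the β2 chain or CD18, was 2.31, 2.11 and 3.77 in intact vehicle, 3.75, 4.26 and 2.38 in intact IPA, 4.28, 6.01 and 5.18 in crushed vehicle, and 5.18, 4.07 and 8.20 in crushed IPA libraries. Vehicle groups did not overlap, IPA groups did, and crushed IPA replicate 3 was the highest. The change was 0.83 ± 0.25 (adjusted p = 0.0127) and 0.65 ± 0.25 (adjusted p = 0.0454). Under IPA it was 0.39 (adjusted p = 0.205) without crushed IPA replicate 3 and 0.44 (adjusted p = 0.197) without intact IPA replicate 3, and the call was also lost without any of 4 other libraries (adjusted p = 0.0553 to 0.0673). Under vehicle the call was lost without intact vehicle replicate 1 or 2 or crushed vehicle replicate 2 (adjusted p = 0.0504 to 0.0593). Macrophage markers moved with these genes: 20 of 20 were higher under vehicle and 19 under IPA, and their sum was 73.7 to 110.3 in intact and 236.3 to 279.4 in crushed libraries. Of 12 neutrophil markers 1 was higher under vehicle and 5 under IPA, with sums of 22.1 to 74.5 in intact and 47.8 to 187.4 in crushed libraries. No marker of either list was at 0 in all libraries, and their part in the rise of the leukocyte chains was not tested.

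Among chains of the RGD-binding and αv receptors some were called higher and others lower. Itga5, the fibronectin receptor chain α5, was 2.91, 4.08 and 3.39 in intact vehicle, 3.70, 4.70 and 3.39 in intact IPA, 5.11, 5.99 and 5.02 in crushed vehicle, and 4.55, 4.86 and 5.07 in crushed IPA libraries. The vehicle groups did not overlap and the IPA groups did. It rose by 0.58 ± 0.13 under vehicle (adjusted p = 0.00182) and changed by 0.28 ± 0.13 under IPA (adjusted p = 0.0911), and the test of the difference did not pass (-0.30 ± 0.18, adjusted p above 0.99). Itgav, the αv chain, was 22.7, 30.1 and 30.9 in intact vehicle, 27.2, 29.2 and 30.7 in intact IPA, 35.4, 32.0 and 32.6 in crushed vehicle, and 28.1, 28.6 and 33.5 in crushed IPA libraries. Intact vehicle replicate 1 was the lowest of all, and without it the vehicle change went from 0.26 ± 0.10 (adjusted p = 0.0491) to 0.12 (adjusted p = 0.252). The call was also lost without any of 8 other libraries (adjusted p = 0.0521 to 0.112). Under IPA it was 0.05 ± 0.10.

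Of the 4 β chains that pair with αv, Itgb5 rose under vehicle, Itgb3 and Itgb6 fell under both treatments, and Itgb8 was called in neither. Itgb5, the β5 chain, was 29.4, 29.1 and 33.2 in intact vehicle, 31.3, 33.5 and 31.9 in intact IPA, 35.1, 39.9 and 33.8 in crushed vehicle, and 33.0, 32.9 and 36.4 in crushed IPA libraries. The vehicle groups lay close but did not overlap. It changed by 0.24 ± 0.07 (adjusted p = 0.0132) and 0.08 ± 0.07, and the vehicle call was lost without intact vehicle replicate 1 or 2 or crushed vehicle replicate 2 (adjusted p = 0.0548 to 0.0688). Itgb3, which also pairs with αIIb on platelets, was 14.8 to 16.1 in intact vehicle, 14.3 to 16.7 in intact IPA, 11.1 to 14.2 in crushed vehicle and 9.58 to 13.1 in crushed IPA libraries. It fell by 0.28 ± 0.11 (adjusted p = 0.0458) and by 0.42 ± 0.11 (adjusted p = 0.00588). Itgb6, the β6 chain of epithelia, was 1.88 to 1.91 in intact vehicle, 1.81 to 2.49 in intact IPA, 1.27 to 1.56 in crushed vehicle and 1.16 to 1.49 in crushed IPA libraries, and fell by 0.29 ± 0.11 (adjusted p = 0.0469) and by 0.56 ± 0.11 (adjusted p = 0.00117). Both vehicle calls sit at the threshold: leaving out any of 8 libraries ended that of Itgb3 (up to adjusted p = 0.19) and any of 8 that of Itgb6 (up to 0.175). With all libraries, the Itgb3 call was lost by edgeR (adjusted p = 0.0601). That of Itgb6 was lost by edgeR (adjusted p = 0.0551), by DESeq2 (0.0756) and by limma with GC and length trends removed (0.0658). Itga2b, the αIIb chain of platelets and megakaryocytes, was 4.88, 4.31 and 5.01 in intact vehicle, 4.48, 4.94 and 4.83 in intact IPA, 4.83, 6.01 and 6.27 in crushed vehicle, and 6.01, 5.81 and 5.91 in crushed IPA libraries. It rose by 0.29 ± 0.10 under IPA (adjusted p = 0.0247) and changed by 0.24 ± 0.10 under vehicle (adjusted p = 0.0521), and the IPA call was lost without any of 4 libraries (adjusted p = 0.0513 to 0.0922). Of 10 platelet markers 5 were below the filter. Among the 5 tested Gp1bb and Pf4 rose. Gp1ba and Gp5 were not called, at -0.23 and -0.19 under vehicle and 0.16 and -0.01 under IPA. The list's median was 0.14 under vehicle and 0.16 under IPA. The sum was 7.23 to 12.5 in intact and 17.6 to 26.6 in crushed libraries. Its largest part was Gp1bb, with a mean of 6.62 in intact and 15.7 in crushed vehicle libraries. The part of platelet RNA in the Itga2b change was not tested. Itga8, the α8 chain, changed by -0.17 ± 0.20 and 0.07 ± 0.20.

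Both the α4 and α9 chains fell. Itga4, a receptor chain for fibronectin and VCAM1, was 7.48, 8.84 and 6.60 in intact vehicle, 6.00, 5.72 and 6.14 in intact IPA, 6.56, 3.81 and 4.51 in crushed vehicle, and 3.69, 4.53 and 4.89 in crushed IPA libraries. Groups did not overlap within a treatment, although crushed vehicle replicate 1 lay just under the lowest intact vehicle value. It fell by 0.60 ± 0.16 under vehicle (adjusted p = 0.00645) and by 0.41 ± 0.16 under IPA (adjusted p = 0.0474), a call lost without any library of the IPA groups other than crushed IPA replicate 3, without intact vehicle replicate 1 or without crushed vehicle replicate 3, and by edgeR (adjusted p = 0.0505). Cerkl shares 8.04% of the exonic bases of Itga4 on the other strand, and whether reads were counted by strand is not given in the sources used here. Itga9, a receptor chain for tenascin C, was 7.15, 7.43 and 7.60 in intact vehicle, 7.19, 7.22 and 7.16 in intact IPA, 6.25, 5.59 and 6.17 in crushed vehicle, and 5.06, 5.21 and 5.40 in crushed IPA libraries. Every crushed library was below every intact one. It fell by 0.28 ± 0.07 (adjusted p = 0.00449) and by 0.43 ± 0.07 (adjusted p = 0.000226).

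Of the 4 collagen-binding α chains Itga11 fell in both comparisons, and Itga1, Itga2 and Itga10 were called in neither. Itga11, a collagen receptor chain of fibroblasts, was 4.61, 4.53 and 5.13 in intact vehicle, 5.74, 5.36 and 4.57 in intact IPA, 3.00, 3.96 and 3.64 in crushed vehicle, and 3.12, 3.20 and 2.15 in crushed IPA libraries. Crushed libraries lay below all intact ones. It fell by 0.39 ± 0.13 under vehicle (adjusted p = 0.0291) and by 0.80 ± 0.13 under IPA (adjusted p = 0.000291). Without crushed IPA replicate 3 the fall under IPA was -0.64, and without crushed vehicle replicate 1 the change under vehicle was -0.29 (adjusted p = 0.0961). The vehicle call was also lost without intact vehicle replicate 1 or 3 or crushed vehicle replicate 3 (adjusted p = 0.052 to 0.0894). Itga10 changed by -0.14 ± 0.16 and -0.40 ± 0.16 (adjusted p = 0.0532), and Gm42957 shares 33.5% of its exonic bases on the same strand. Itga1 and Itga2 changed by -0.06 ± 0.14 and 0.09 ± 0.16 under vehicle, and by -0.05 ± 0.14 and 0.08 ± 0.16 under IPA.

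Transcripts of proteins that work with these receptors were called in both directions. Of 29 tested integrin adaptor and focal adhesion genes 11 rose (37.9%, against 23.6% of all genes) and 6 fell (20.7%, against 24.4%) under vehicle. Under IPA 8 rose (27.6%, against 21.2%) and 6 fell (20.7%, against 22.5%), and the median was 0.05 in each comparison. Ptk2, the focal adhesion kinase, rose by 0.51 ± 0.05 and 0.37 ± 0.05, and Zyx (zyxin) by 0.73 ± 0.08 and 0.62 ± 0.08, under vehicle and IPA. Tln2, the talin that activates integrins in neurons and muscle, fell by 0.64 ± 0.07 and 0.62 ± 0.07, and Tns1 (tensin 1) by 0.47 ± 0.05 and 0.49 ± 0.05. Of 20 other ligand genes 9 rose (45%) and 2 fell (10%) under vehicle, and 5 rose (25%) and 5 fell (25%) under IPA, against the same shares of all genes, with medians of 0.25 and 0.03. Cdh1, E-cadherin, which binds αEβ7, fell by 0.51 ± 0.05 and 0.49 ± 0.05, and Adam23, a disintegrin of neurons, by 0.48 ± 0.06 and 0.42 ± 0.06. Nov, a matrix protein of the CCN family, rose by 0.92 ± 0.10 and 0.64 ± 0.10, and Tgfbi, a matrix ligand of several integrins, by 0.75 ± 0.11 and 0.73 ± 0.11. Of 25 other basement membrane and laminin receptor genes 5 rose (20%) and 3 fell (12%) in each comparison, shares below those of all genes, with medians of 0.03 and -0.08. Sdc1, a syndecan that binds laminin through its sugar chains, rose from 23.6 ± 2.77 to 165.5 ± 17.8 under vehicle, by 2.78 ± 0.09 (adjusted p = 2.43e-11), and was higher under IPA as well (adjusted p = 3.94e-11). Bcam, a receptor for laminin α5 on the cell surface, rose from 702 ± 63.1 to 1248 ± 126.1, by 0.83 ± 0.08, and by 0.81 ± 0.08 under IPA.

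The comparison of IPA with vehicle in intact mice asked what the compound changed without injury. No integrin or laminin gene passed by limma (0 of 36, against 0.0% of all genes), edgeR or DESeq2. At an unadjusted p under 0.05 there were 5 (13.9%, against 12.2% of all genes), and groups did not overlap for 7 (19.4%, against 25.2%). The median log2 change was 0.01. The smallest p belonged to Itga6, whose values are given above: all 3 IPA libraries lay below all 3 vehicle libraries, with a change of -0.15 ± 0.04 (limma, adjusted p = 0.408). Itgb8, whose αvβ8 receptor activates latent TGF-β, was 78.6, 87.7 and 80.0 in intact vehicle and 70.2, 69.2 and 72.9 in intact IPA libraries, a change of -0.21 ± 0.07 (adjusted p = 0.408). Its groups did not overlap, and in crushed ganglia it was 97.1, 81.4 and 77.3 under vehicle and 77.4, 79.6 and 77.7 under IPA. Itgb1 changed by -0.13 ± 0.05 (adjusted p = 0.408), again with all IPA values below all vehicle values. Itgal, the αL chain of lymphocytes, was 1.29, 0.740 and 1.70 in intact vehicle and 4.35, 2.23 and 1.34 in intact IPA libraries, a change of 0.77 ± 0.27 (adjusted p = 0.408) with overlapping groups, and 0.40 without intact IPA replicate 1. Intact IPA replicate 1 held the highest value, while lymphoid markers summed to 4.81 there and to 4.36 to 7.11 over all libraries. Itgal was 1.39, 1.82 and 1.55 in crushed vehicle and 1.70, 1.57 and 1.91 in crushed IPA libraries. With library weights estimated gene by gene, 3 genes were called higher (Itga3, Itga7, Itgal) and 5 lower (Itga1, Itga4, Itga6, Itgb1, Itgb8). The same weights called 1931 higher and 1342 lower of all 15603 genes, so these calls are not particular to integrins and laminins.

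IPA after injury was compared in the same way. No member passed by limma (0 of 36, against 0.0% of all genes), edgeR or DESeq2, 5 were at an unadjusted p under 0.05 (13.9%, against 8.06%), and groups did not overlap for 4 (11.1%, against 11.4%). The median change was -0.07. Lama2, the α2 chain of Schwann cell and muscle laminin, was 24.0, 25.6 and 23.6 in intact vehicle, 24.6, 24.6 and 20.4 in intact IPA, 24.1, 27.5 and 24.0 in crushed vehicle, and 18.9, 20.6 and 22.8 in crushed IPA libraries. All crushed IPA values lay below all crushed vehicle values, with a change of -0.28 ± 0.09 (limma, adjusted p = 0.578). Itga6 and Itga9 likewise had every crushed IPA library below every crushed vehicle library, at -0.11 ± 0.04 and -0.18 ± 0.07 (adjusted p = 0.581 for each). Itga3 changed by 0.17 ± 0.07 (adjusted p = 0.604), with overlapping groups, and Itga11 by -0.29 ± 0.13 (adjusted p = 0.619). Of the genes that rose after injury, the IPA change after injury was 0.02 for Itga7 (95% interval -0.16 to 0.20), 0.02 for Lamb3 (-0.22 to 0.26), -0.01 for Itgam (-0.39 to 0.37) and -0.06 for Itgb1 (-0.18 to 0.06).

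Whether injury acted differently under IPA was tested as an interaction. No gene passed (0 of 36, against 0.0% of all genes), and 0 of 36 were at an unadjusted p under 0.05, against 2.1% of all genes. edgeR and DESeq2 called no member either. The smallest p belonged to Itga11 (-0.41 ± 0.19), Itgal (-0.68 ± 0.39), Lamc1 (-0.17 ± 0.10) and Itga5 (-0.30 ± 0.18). Intervals leave room for moderate effects: the 95% interval lay within 1.5-fold for 33 of 36 genes for IPA without injury, for 34 after injury and for 27 in the interaction.

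**Figure D5:**
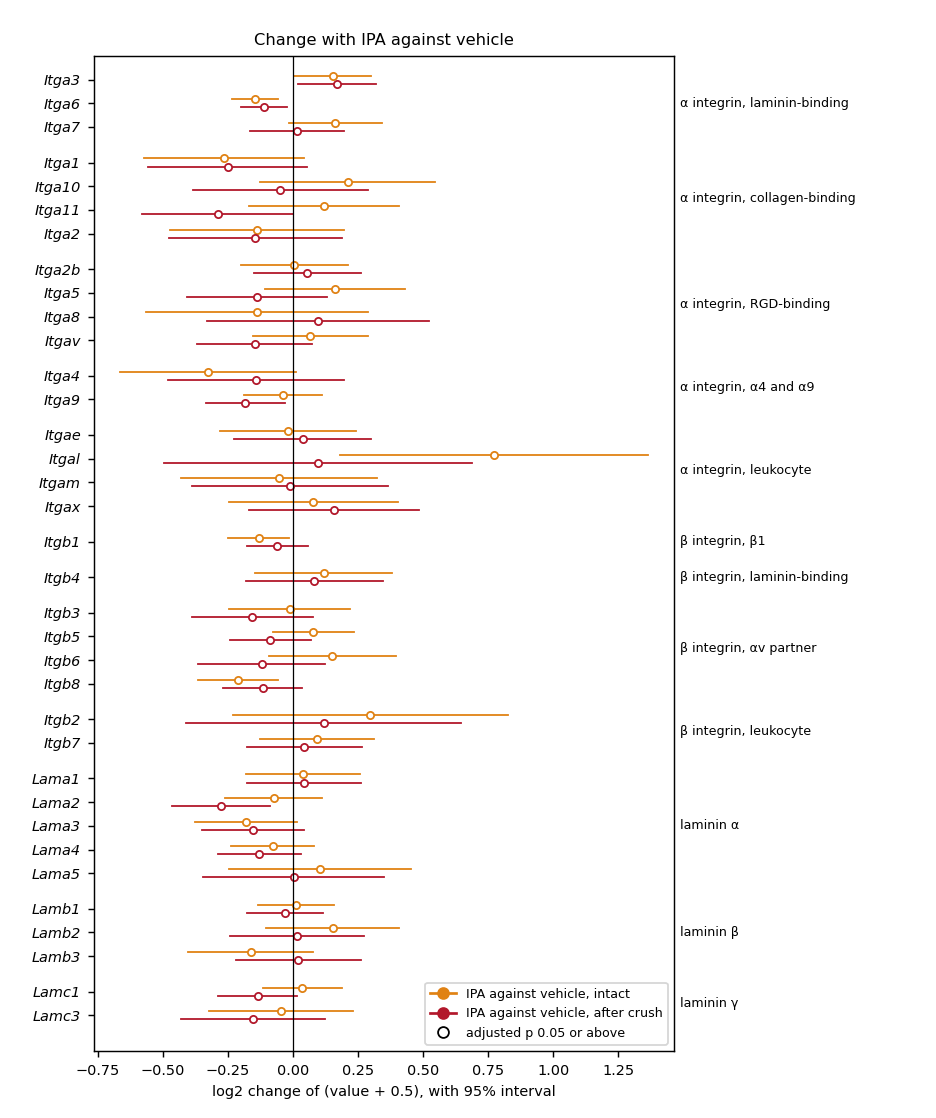
Log2 change with IPA against vehicle (horizontal axis, on the log2(value + 0.5) scale, with 95% interval) for the tested genes reported by name in intact (orange) and crushed (red) mice; open points did not pass at an adjusted p under 0.05. All points are open, Itgal in intact mice has the largest change (0.77), and the other genes lie within 0.33 of 0.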

How the data were processed

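Poly(A) RNA was sequenced with a strand-specific kit, in pairs of 75 bases, per the labels' protocols. Tools listed in the submitters' processing notes, with no role, are FastQC 0.10.1, R 3.5.0, limma 3.38.3, edgeR 3.24.3 and STAR 2.7.0, with the build mm10. Which counter, annotation and strand setting were used is not given in the sources used here. Values in the table that the authors deposited are named FPKM but behave as CPM: in each library 100% are whole multiples of 1 step (tolerance 1e-06), with no gene length divided out. The reads so recovered (40938034 to 62501969 per library) served edgeR 4.0.16 (quasi-likelihood) and DESeq2 1.42.0 as alternatives. The planned test, limma on the log scale, was kept. Values were taken as log2(value + 0.5), genes at 0.5 or more in at least 3 of 12 libraries were kept (15603), and all libraries entered 1 limma-trend fit (limma 3.58.1, R 4.3.3, 8 residual degrees of freedom, adjusted p under 0.05 over all genes). Depth limits low genes, and intervals cover the spread between libraries.

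Values for every library are given for the 14 genes with the smallest p after injury under vehicle, the 4 with the smallest p per IPA comparison, the 4 with the highest level per kilobase per family, and genes whose call differs between treatments. The remaining genes are given by ranges or changes, and Itgb3, Itgb6, Itga8 and Itga10 were picked out after their values were seen. A laminin chain enters the counts but is not reported here by name. The genes and lists were chosen with earlier results of these data known. Lengths, coordinates and exon overlaps come from GENCODE M21 (mm10). Per the labels, each replicate is its own pool of 2 mice. Numbers shared between groups were not taken as pairs in the fit. The fit was tested on simulated counts. Alternatives were pseudocounts of 0.1 and 1, no filter or 1, median-of-ratios and quantile scaling, a threshold of 0.1, array weights, fits of the compared groups alone, robust variance moderation, the replicate block, removal of GC and length trends, and each library left out. Gene-by-gene array weights were chosen after seeing the data.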

Additional observations from a re-analysis of the deposited data

How the results depend on the processing

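The counts of called integrin and laminin genes moved by more than 1.5 times in few settings. None of the 17 changes called under vehicle and 16 called under IPA turned direction in any alternative, while changes that were not called did so in 19 of 512 fits under vehicle and 22 of 539 under IPA. With each library left out in turn, 7 to 15 genes rose and 3 to 6 fell after injury under vehicle, 7 to 11 rose and 4 to 8 fell under IPA, and 0 were called in the IPA comparisons and the interaction. Over all 15603 genes these fits called 3080 to 4080 higher and 3219 to 4240 lower under vehicle. Under IPA they called 2738 to 3648 higher and 2868 to 3981 lower. The low counts under vehicle came without intact vehicle replicate 1 (7 and 3), without crushed vehicle replicate 2 (7 higher), without intact vehicle replicate 3 and without crushed vehicle replicate 3 (3 lower each). Without a filter on low values 3 genes fell under vehicle, and 3563 of all 29233 genes then tested. Array weights, whose estimate did not converge (42.2 for crushed IPA replicate 2, 0.146 to 2.79 for the others), gave 18 higher under vehicle, 11 lower under IPA, 4 higher and 5 lower for IPA without injury, 3 and 10 for IPA after injury, and 1 and 5 in the interaction. Weights estimated gene by gene gave 17 higher under vehicle, 11 lower under IPA, 3 higher and 5 lower for IPA without injury, and 1 lower (Lama2) for IPA after injury. Of all 15603 genes, array weights called 5272 higher under vehicle and 5891 lower under IPA. For IPA without injury they called 2444 higher and 1716 lower, after injury 2137 and 1863, and in the interaction 952 and 1174. Gene-by-gene weights called 4804 higher under vehicle and 5244 lower under IPA. For IPA they called 1931 higher and 1342 lower without injury, and 232 and 92 after injury. The cause of these shifts was not tested.

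Calls of Itga7, Lamb3, Itgb1, Itgam, Lama5, Lama3 and Itga9 after injury held in every alternative under both treatments. With GC and length trends removed, 15 rose under vehicle and 12 under IPA, Itgb8 among those added under IPA (0.22). The Itgb8 change with IPA without injury was -0.08 there, against -0.21. Of all 15277 genes tested in that setting, 3582 were called higher and 4858 lower under vehicle. Under IPA 3405 were called higher and 4600 lower. No pairing by replicate number was seen: deviations of same-numbered libraries correlated at -0.252 to 0.205. Those of libraries with different numbers correlated at -0.346 to 0.287. Whether same-numbered libraries shared a batch cannot be told from 3 libraries per group. With the replicate block 11 genes rose and 5 fell under vehicle, without Itgb6. Under IPA 9 rose and 6 fell with the block, where Itga3, Itga4 and Itgb2 were lost and Itga5 and Itga10 gained. Of all 15603 genes the block called 3549 higher and 3661 lower under vehicle, and 3156 and 3359 under IPA. Genes near the filter, such as Lamb3 in intact ganglia and Itgax, rest on 5 to 74 reads per library, so their fold changes are less certain.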
